A study of Arabidopsis thaliana with 8 samples.

Results

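The genes described here are those whose shoot signal was higher under both iodide salts, NaI and KI, than in untreated plants and under the bromide salt KBr. A probe set, the group of short probes that reads 1 transcript on an Affymetrix ATH1 array, belonged to the set when the lower of its NaI and KI shoot signals was at least 100 and at least 2 times the higher of its control and KBr signals. The ratio of that lower to that higher signal is called the shoot fold below, and the same ratio on the root arrays the root fold. The members were thus chosen by their measured shoot signals. The rule gave 81 of 22746 probe sets (0.356%), which are called raised. The opposite rule, with both iodide signals lower, gave 21 (0.0923%). Of the 81, 35 carried the name of a single gene, all at different loci (0.259% of the 13513 probe sets with 1 gene symbol), and 46 had no gene in the annotation used here. The shoot values are therefore a description, whereas the root arrays took no part in the choice.

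All plants were Arabidopsis thaliana of the ecotype Columbia (Col-0), with no mutant or transgenic line named in the labels, grown in hydroponic culture for about 3 weeks. KBr, NaI or KI was added to the nutrient solution at 10 μM, control plants received no salt, and shoots (rosettes, labelled as leaves) and roots were taken 48 h later. The labels give iodine in the base solution of all groups as 8 nM, as a contaminant, whereas the methods name this value as a detection limit that the solution lay below. Each of the 4 treatments had 1 shoot and 1 root array, and each array read a pool of 3 plants. The KBr plants were included as a control for the halogen and, beside KI, for potassium. Because no array was repeated, no array difference below has a replicate check or a p-value. The study also measured a few iodide-regulated genes by quantitative PCR on replicate samples. Its primer list includes At5g52390, a gene described below, but those measurements were not used here.

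Leaves that meet a pathogen, or that receive the hormone salicylic acid, accumulate pathogenesis-related proteins. These include glucanases and chitinases, which cut the wall polymers of fungi, osmotin and other thaumatin-like proteins, and small lipid transfer proteins that are mostly secreted. Ankyrin-repeat proteins, receptor-like kinases and secreted peptides take part in the signalling that precedes them, while starch and chloroplast proteins are also reshaped under stress and in senescence.

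The values are MAS5 signals, an intensity on a linear scale. Array medians lay between 168 and 193, and 58.5 to 61.7% of the probe sets on an array reached 100. The labelled tissues were checked against marker genes. RCA, which encodes the activase of the carbon-fixing enzyme Rubisco and was the only green-tissue marker with a probe set of its own, read 30287 to 36838 on the shoot arrays and 52.4 to 90.3 on the root arrays. The 5 root markers with a probe set (EXPA7, EXPA18, PRX7, PRX44 and PRX57) were each under 100 on all shoot arrays. Their summed shoot signal was 164 for control and 86.7 for KBr, and 67.6 and 66.3 for NaI and KI, so it was lower on both iodide arrays. Each marker was lower than control on both iodide arrays. Against KBr only EXPA18, the largest part of the sum, was lower on both, and PRX44 and PRX57 were higher on both. In root the same sum was 30921 for control, 32268 for KBr, 18418 for NaI and 17362 for KI, also lower with iodide. Within a pool, more cells of a type and more RNA per cell cannot be told apart.

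Across all 81 probe sets the shoot fold ran from 2.01 to 6.76 with a median of 2.37. In 51 of them it was under 2.5, in 13 it was at least 3 and in 5 at least 4. The median ratio to control was 3.03 under NaI, 2.77 under KI and 1.09 under KBr. Taken 1 salt at a time against control, 1.6% of all probe sets were at least 2 times higher and at least 100 under NaI in shoot, 2.16% under KI and 0.295% under KBr. In root these shares were 4.31% under NaI, 4.29% under KI and 0.255% under KBr. Neither control nor KBr reached 100 in 26 of the probe sets, and in 42 of them both did.

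**Figure D1:**
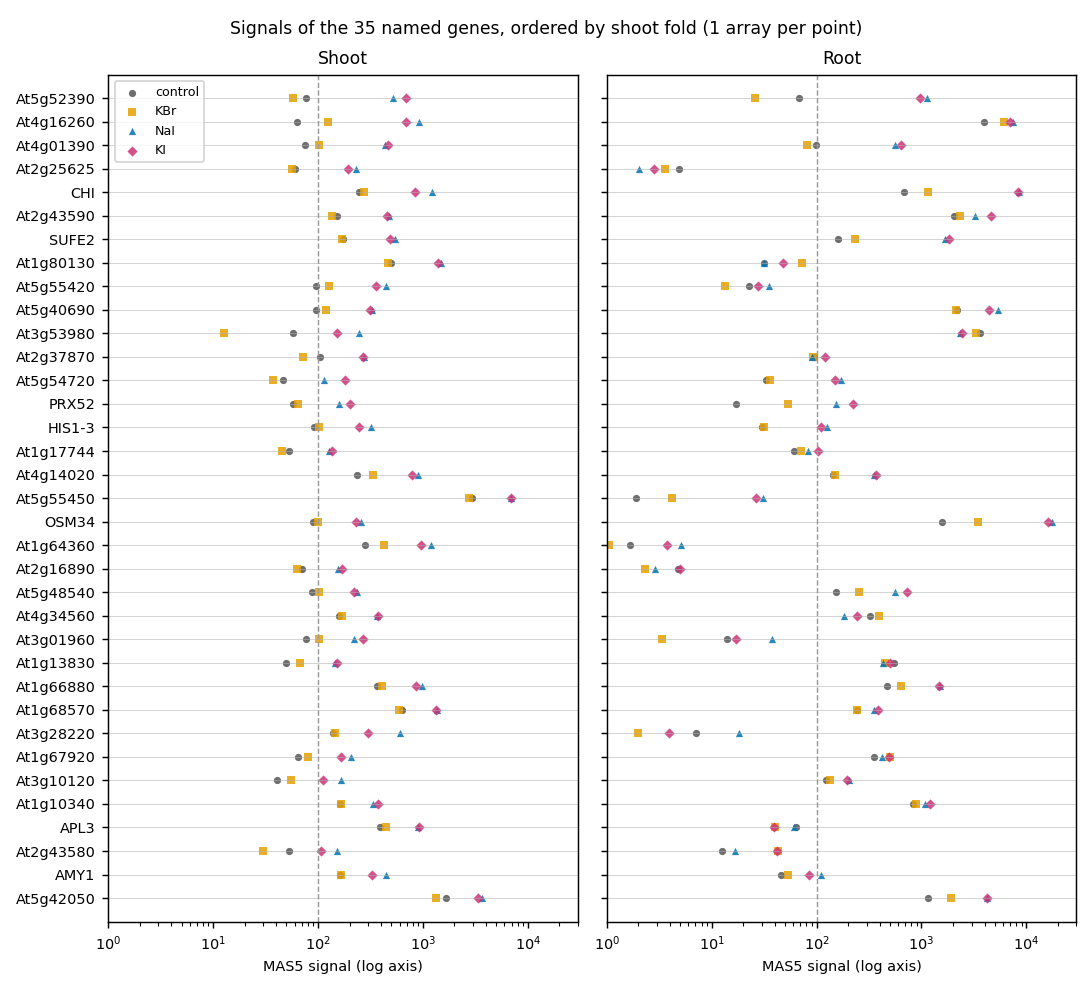
MAS5 signals (log axis) of the 35 named genes in shoot (left) and root (right), ordered by shoot fold from top to bottom, with 1 point per array and the dashed line at a signal of 100. In shoot both iodide points lie to the right of the control and KBr points in every gene, as the rule requires, whereas in root 10 of the genes stay left of the dashed line on all arrays.

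The highest shoot fold among the named genes belonged to At5g52390, which encodes a PAR1 protein, a small family first found in tobacco among genes that respond to photoassimilates. Its shoot control and KBr signals were 76.2 and 58.2, and its NaI and KI signals were 515 and 694, a shoot fold of 6.76. In root the same arrays read 67.9, 25.8, 1135 and 966, a root fold of 14.2. The gene was thus dim on all 4 arrays without added iodide and bright on all 4 arrays with it. At4g01390, a protein of the TRAF-like family, gave nearly the same picture. Its shoot signals of 75.1 and 102 without iodide stood against 436 and 465 with it (shoot fold 4.26), and its root signals of 98.8 and 80.3 against 564 and 633 (root fold 5.71). A second TRAF-like gene, At3g28220, behaved differently. It read 139 and 146 in control and KBr shoots, 607 under NaI and 303 under KI, a shoot fold of 2.07 with the NaI signal above the KI signal, and it stayed at or below 18.1 on every root array.

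Pathogenesis-related hydrolases and osmotin made up the next group, with 5 named genes. At4g16260 encodes a glucanase of the family that cuts callose and related glucans. The control shoot read 63.8 and the KBr shoot 125, whereas the NaI and KI shoots read 918 and 689.5, which gave a shoot fold of 5.51. Its KBr signal was nearly 2 times its control signal, at a ratio of 1.96. The root arrays read 3989 and 6108 without iodide and 7405 and 7046 with it, a root fold of 1.15 that did not meet the rule. Both iodide arrays were thus the higher ones in root too, but by less than 2-fold over KBr. CHI (At2g43570), a chitinase, had shoot signals of 245 and 278 without iodide and of 1234 and 849.7 under NaI and KI (shoot fold 3.06). In root it read 688 and 1157 without iodide and 8574 and 8356 with it, a root fold of 7.22.

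At2g43580, the locus next to CHI on chromosome 2, and At2g43590, the one after it, also encode proteins of the chitinase family, and both were members. At2g43590 read 152 and 137 in shoots without iodide and 470.4 and 450.2 with NaI and KI (shoot fold 2.97). In root it was already at 2039 and 2319 without iodide and read 3239 and 4585 with it, short of the rule. At2g43580 lay at the edge of the rule, at 52.7 and 29.6 without iodide against 153 and 107 with it (shoot fold 2.03), and its root signals were all under 100. The 3 loci that follow in number, At2g43600, At2g43610 and At2g43620, were not raised in shoot. At2g43620, for example, read 444 and 341 in control and KBr shoots and 424 and 375 in NaI and KI shoots, although its root fold was 2.64.

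OSM34 (At4g11650), an osmotin-like protein of the thaumatin family, had modest shoot signals of 90.2 and 99.1 without iodide and 258 and 229 with it (shoot fold 2.31). In root control and KBr read 1571 and 3468, and NaI and KI read 17706 and 16226, a root fold of 4.68. The KBr root signal was also more than 2 times control. A KBr root signal of at least 100 and at least 2 times control was seen in 2 of the 81 probe sets, against 0.255% of all probe sets.

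**Figure D2:**
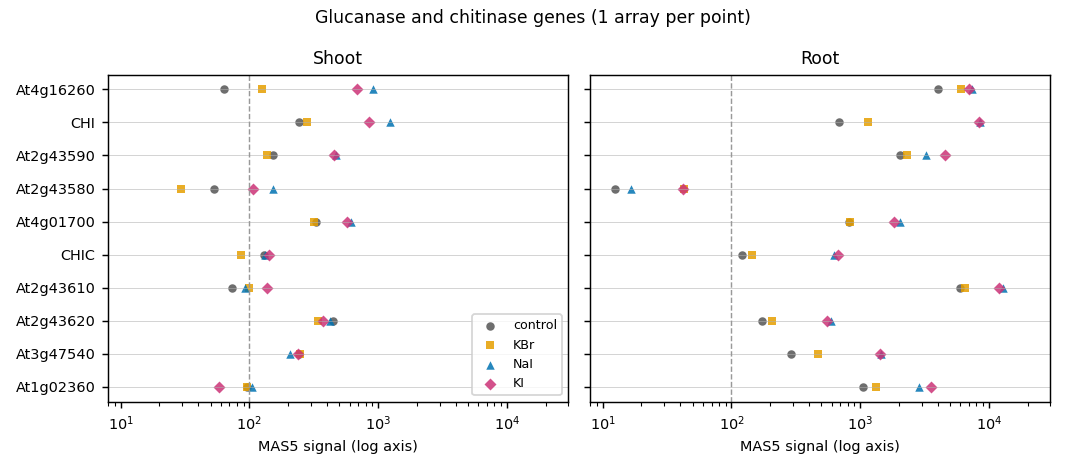
MAS5 signals (log axis) of the 10 glucanase and chitinase genes with a probe set of their own, in shoot (left) and root (right), with 1 point per array and the dashed line at 100. The upper 4 genes were raised in shoot, whereas At2g43610, At2g43620, At3g47540 and At1g02360 showed no such separation there, and 9 of the 10 reached a signal of 100 in root.

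The glucanase and chitinase list, which was drawn up with the paper and earlier results of these arrays known and so gives no independent evidence, held 18 genes. Of the 10 with a probe set of their own, all reached 100 in shoot and 4 met the rule there, against 0.433% of all 8076 genes measured in shoot. The list's median log2 ratio to control was 0.62 under NaI, 0.85 under KI and -0.02 under KBr, and over all measured genes it was 0.02, 0.05 and -0.01. Nearest to the threshold among the others was At4g01700, with 327.5 and 319 without iodide and 612 and 569.7 with it (shoot fold 1.74), while CHIC (At4g19810) read 129.6 and 85.7 against 133 and 142. In root 6 of 9 measured genes of the list met the rule, against 4.15% of all measured genes.

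Lipid transfer and related proteins carry a compact fold held by cysteine bridges, and 3 named members belonged to them. At5g55450 was strong in every shoot, with 2973 and 2775 without iodide and 6973 and 6908 with NaI and KI (shoot fold 2.32). It was under 100 in root, where the signals were 1.90 and 4.18 without iodide and 30.5 and 26.5 with it. At3g53980 had the opposite tissue pattern. Its shoot signals were 58.1 and 12.8 without iodide and 244 and 151 with NaI and KI (shoot fold 2.59), and its KBr signal was 0.220 times its control signal, the lowest such ratio of the set. In root it read 3624 and 3289 without iodide and 2352 and 2421 with it, so there both iodide arrays were the lower ones. At2g37870 stood at 105 and 71.8 against 277 and 266 in shoot (shoot fold 2.55), and its root arrays, at 90.6 to 119, did not separate in the same way. None of the 3 was raised in root.

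Genes of the starch pathway and of transport, placed together with a glycosyltransferase gene, formed a group with small shoot folds, 2.02 to 2.22. APL3 (At4g39210), a large subunit of ADP-glucose pyrophosphorylase, the first committed enzyme of starch synthesis, had shoot signals of 392 and 445 without iodide and 905 and 913 with it (shoot fold 2.03). AMY1 (At4g25000), an alpha-amylase that cuts starch, had 163 and 164 against 449 and 331 (shoot fold 2.02). Genes for making and for cutting starch were thus both in the set. At1g68570, a membrane transporter of the nitrate and peptide transporter family, read 638 and 596 without iodide and 1365 and 1343 with it, and At2g16890, a glycosyltransferase that joins sugars to small molecules, 70.3 and 62.9 against 156 and 168 (shoot fold 2.22). None of these was raised in root, where AMY1 came closest with a root fold of 1.60. After median scaling of the arrays only At2g16890 of the group still met the shoot rule.

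Signalling proteins at the cell surface and ankyrin-repeat proteins were 5 in number, and 4 of them were also raised in root. At4g14020, of the family of RALF secreted peptides, had shoot signals of 236 and 332 without iodide and 899 and 785 with it (shoot fold 2.37), and root signals of 144 and 151 against 353 and 368 (root fold 2.34). The protein kinase gene At1g66880 gave 366 and 405 against 984 and 857 in shoot (shoot fold 2.11) and 470.1 and 644 against 1493 and 1466 in root (root fold 2.28). At5g48540, which encodes a secreted protein related to cysteine-rich receptor-like kinases, had a shoot fold of 2.17 and a root fold of 2.24. The folds of these 3 genes were thus close to each other in both tissues. Of the ankyrin-repeat genes, At5g54720 read 46.8 and 37.4 against 115 and 179.9 in shoot (shoot fold 2.46) and 33.3 and 36.3 against 173 and 150.3 in root (root fold 4.14). At1g10340 had a shoot fold of 2.04 and was at 822 to 1206 on the root arrays, with both iodide arrays higher but a root fold of 1.21.

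Chloroplast, stress and chromatin genes came next. At2g25625, known as CHLOROPLAST VESICULATION, takes part in the breakdown of chloroplasts in senescence and stress. Its shoot signals were 61.0 and 56.2 without iodide and 229 and 192 with it (shoot fold 3.15), and its root signals were below 5 on every array. SUFE2 (At1g67810) encodes an activator of cysteine desulfurase, which supplies sulfur for iron-sulfur clusters. It read 173 and 171 against 548 and 491 in shoot (shoot fold 2.83) and 159.7 and 232 against 1679 and 1822 in root (root fold 7.24). HIS1-3 (At2g18050), a linker histone known for its induction by drought, read 92.5 and 102 against 319.5 and 249 in shoot and 30.1 and 31.3 against 126 and 111 in root, with a shoot fold of 2.43 and a root fold of 3.55. At5g42050, an asparagine-rich protein that carries a DCD domain tied to stress and cell death, was the member nearest the 2-fold limit. Its shoot signals were 1659.7 and 1326 without iodide and 3673 and 3332 with it (shoot fold 2.01), and its root fold was 2.18. SUFE2, HIS1-3 and At5g42050 were thus raised in both tissues, whereas At2g25625 was raised in shoot and below 100 in root.

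Both cell-wall genes in the set differed in root. PRX52 (At5g05340), a class III peroxidase linked to lignin, had shoot signals of 57.4 and 64.2 without iodide and 158 and 202 with it (shoot fold 2.46). In root it read 17.1 and 53.5 against 154 and 221 (root fold 2.88). At1g13830, which carries a carbohydrate-binding domain, read 49.4 and 67.5 against 145 and 150.3 in shoot (shoot fold 2.15) and between 426 and 552 in root, where the iodide and other arrays overlapped.

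For the remaining 9 named members no role is given here. Their shoot folds ran from 2.05 to 2.82 with a median of 2.26. At1g80130, a protein with tetratricopeptide-like repeats, was at 494 and 466 in shoots without iodide and at 1495 and 1393 with it (shoot fold 2.82), and under 100 on all root arrays. At1g64360 read 283 and 429 against 1196 and 970.5 (shoot fold 2.26) and did not exceed 5.07 in root. At5g40690 was the single gene of the 9 that was raised in root, at 2164 and 2148 without iodide against 5387 and 4433 with it (root fold 2.05), beside 95.6 and 118 against 327 and 316 in shoot. At5g55420, annotated as a transcribed pseudogene, read 95.6 and 128 against 442 and 355 in shoot (shoot fold 2.77). At4g34560 was higher with iodide in shoot, at 159 and 170.2 against 369 and 370.5, and lower with it in root, at 321 and 396 against 184 and 242. The others were At1g17744, At3g01960, At1g67920 and At3g10120, with shoot folds between 2.05 and 2.37.

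**Figure D3:**
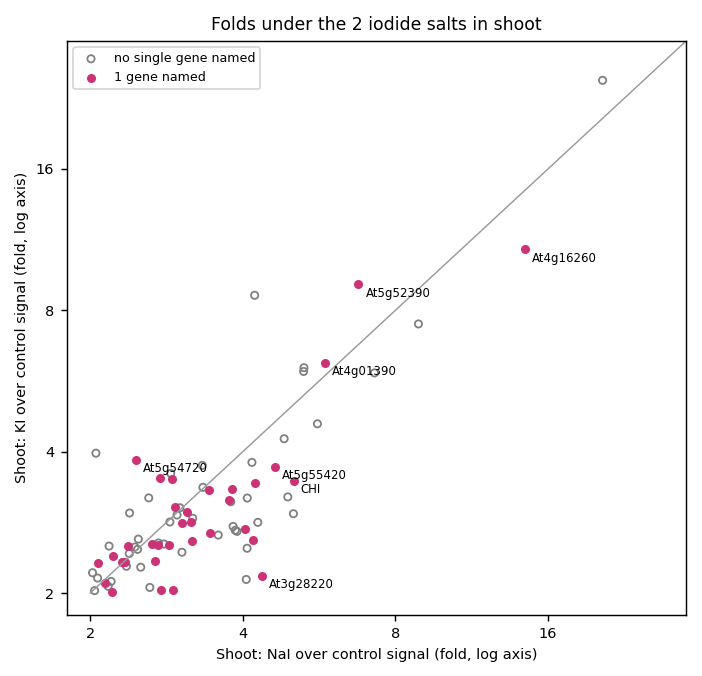
Shoot signal under NaI over control (horizontal) and under KI over control (vertical), both on log axes, for the 81 probe sets, with filled points for the 35 named genes and the line marking equal ratios. Most points lie near the line, 53 of them below it, and At3g28220 is the named gene farthest below.

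Among the members the 2 iodide salts gave similar signals. The rule required both to be high, so probe sets raised by 1 salt alone were left out. With NaI alone as the iodide it gave 156 probe sets, and with KI alone 251. The ratio of KI to NaI signal in shoot had a median of 0.938 and ran from 0.499 to 2.04. NaI was above KI in 53 of the 81 probe sets, and over all 14761 probe sets that reached 100 in shoot it was above in 47.9%. A difference of at least 1.5 times between the salts was seen in 10 of the 81, with NaI the higher in 7 and KI in 3. With 1 array per salt, such a difference cannot be told apart from one between arrays. Under KBr the signal was above control in 51 of the 81, by at least 1.5 times in 5, and below it by at least 1.5 times in 4. The same counts were not made over all probe sets. The median ratio of KBr to control was 1.09 in the 81 and 0.996 over probe sets that reached 100 in shoot. The rule had used these KBr and control signals. Among named genes KBr departed by that much in At4g16260 and At1g64360, where it was the higher, and in At3g53980 and At2g43580, where it was the lower.

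**Figure D4:**
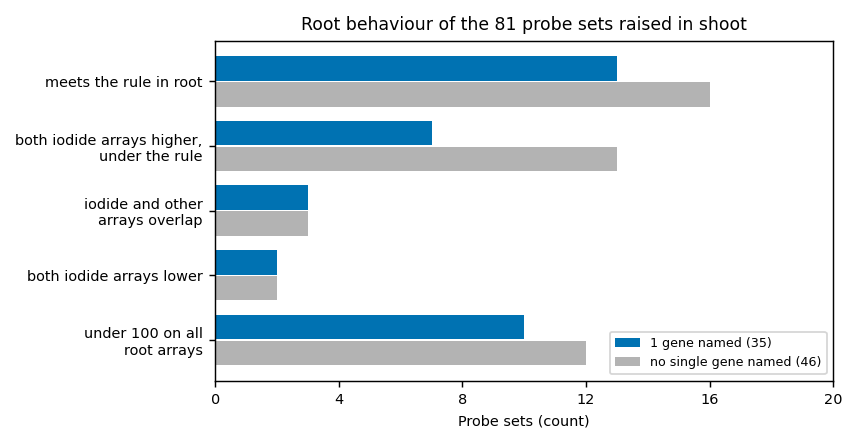
Number of the 81 probe sets raised in shoot that fell into each of 5 classes on the root arrays, with bars from 0 for the 35 named genes and the 46 probe sets with no single gene named. In all 29 met the same rule in root, 22 were under 100 on all root arrays and 4 had both iodide arrays lower.

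Applied to the root arrays, the rule was met by 29 of the 81 probe sets (35.8%), 13 of them named, whereas it was met by 2.85% of all probe sets and by 2.52% of those with 1 gene symbol. In the set 59 members (72.8%) reached 100 on some root array, against 65.9% of all probe sets. These shares are not like for like, because the rule required members, but not all probe sets, to reach 100 in shoot. The share among probe sets that reached 100 in shoot was not counted. Among all probe sets that reached 100 in root, 4.33% met the rule. A further 20 had both iodide arrays higher in root without meeting the rule, and in 6 the iodide and other arrays overlapped. Another 4 had both iodide arrays lower, and 22 were under 100 on all root arrays. Without a signal minimum, both iodide arrays were above control and KBr in root in 58 of the 81, against 23.4% of all probe sets, and below both in 6, against 29.3%. Among probe sets that reached 100 in root the first pattern was seen in 49 of 59 members, against 25.3%, and the second in 4 of 59, against 35.2%. For members that reached 100 in root the median log2 root fold was 1.01, beside -0.25 over all probe sets that reached it. For all 81 it was 0.72, beside -0.33 over all probe sets.

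**Figure D5:**
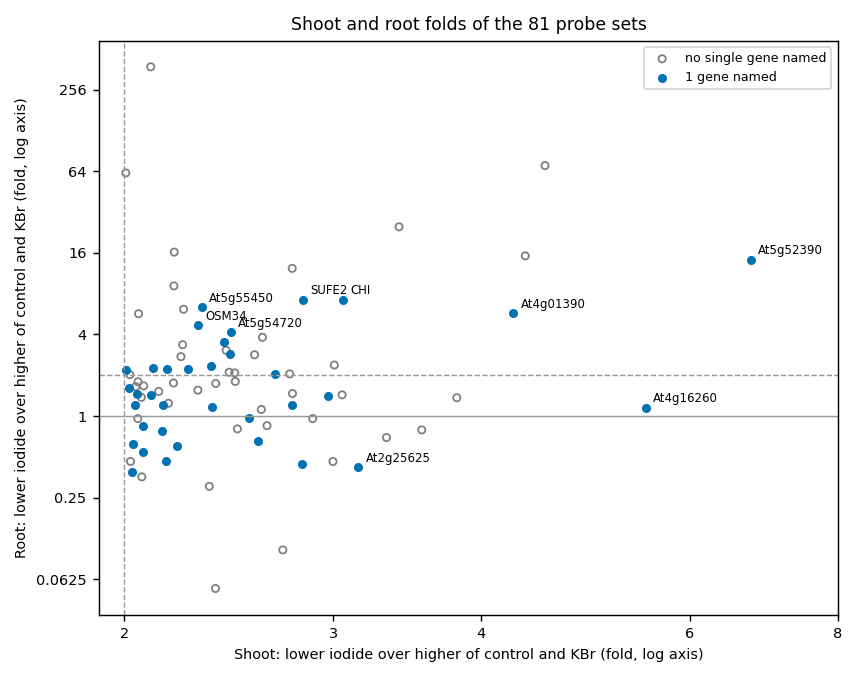
Shoot fold (horizontal) and root fold (vertical), the lower iodide signal over the higher of control and KBr, on log axes for the 81 probe sets, with dashed lines at 2 and a solid line at no difference. Points above the upper dashed line whose lower root iodide signal was at least 100 are the 29 raised there. The height of a point in root shows little relation to its place in shoot.

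The 13 named genes raised in both tissues were At5g52390, SUFE2, CHI, At4g01390, OSM34, At5g54720, HIS1-3, PRX52, At4g14020, At1g66880, At5g48540, At5g42050 and At5g40690. Their root folds ran from 2.05 to 14.2, and in 11 of the 13 the root fold was larger than the shoot fold. The order of size was not the same in both tissues. Over the 81 probe sets Spearman's correlation of shoot and root fold was 0.107, a description across probe sets that share arrays and many of which were dim in root. At4g16260, for instance, was second by shoot fold among named genes and had a root fold of 1.15.

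The control signals of the tissues were unlike in many members. In 6 named genes the root control was at least 10 times the shoot control, namely At4g16260 at 62.5 times, At3g53980 at 62.3, At5g40690 at 22.6, OSM34 at 17.4, At2g43590 at 13.5 and At1g13830 at 11.2. Of these, OSM34 and At5g40690 were raised in root too. In 6 others the shoot control was at least 10 times the root control, and At5g55450, At1g64360, At3g28220, At1g80130, At2g16890 and At2g25625 were all under 100 in root. RNA was extracted from shoots and roots by different methods, so tissue and extraction cannot be told apart in these levels, while folds within a tissue share one method. The summed signal of the root markers, given above, was lower on the iodide shoot arrays than on the control one. It was also lower with iodide in root, so it cannot show how much root material a shoot pool held. That amount was not tested.

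The 46 probe sets without a gene name had shoot folds of 2.01 to 4.53 with a median of 2.41, and 16 of them were raised in root, with root folds of 2.02 to 378 and a median of 4.52. The probe set 251625_at, the highest of them by shoot fold, had shoot signals of 857 and 1114 without iodide and 6235 and 5043 with it, and root signals of 10.2 and 17.3 against 1827 and 1217. The probe set 259925_at had the largest root fold, with 6.19 and 4.24 against 2996 and 2340.2, beside 1804 and 2528 against 9079 and 5322 in shoot. Both were dim in root without iodide and bright in shoot on all arrays, so their root folds rest on low denominators.

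Other defence and stress genes were read from lists that were likewise chosen with earlier results known. Of 41 listed genes of salicylic acid synthesis and response, 7 had a probe set of their own. Of these, 4 were measured in shoot and none was raised. The nearest was GRX480 (At1g28480), a glutaredoxin induced by salicylic acid, at 75.3 and 60.4 without iodide and 187 and 138 with it (shoot fold 1.84), and it was the 1 gene of the list raised in root. LLP1 (At5g03350), a legume-lectin-like protein of systemic defence, read 6929 and 5594 against 9713 and 9667. Of the jasmonate and ethylene list 3 genes were measured and none raised. The defensin PDF1.2a read 423 and 446 without iodide, 1163 under NaI and 577 under KI, so its separation was seen with NaI but was small with KI, and PDF1.2b showed 158, 412, 1016 and 437 in the same order, from a probe set that may also read related defensins. The 1 camalexin gene with a probe set of its own, FOX1, stayed under 100 in shoot. No measured gene met the rule among 3 of pattern-triggered immunity, 3 of leaf senescence, 4 of detoxification, 2 of the endoplasmic reticulum and 4 of the cold response. Over all measured genes the rule was met by 0.433% in shoot and 4.15% in root, so a count of none in lists this short says little. In the senescence list WRKY53, a transcription factor that promotes leaf ageing, was at 157 and 158 without iodide, 414 under NaI and 212 under KI. These lists had few genes with a probe set of their own, and most of their members were not analysed here. Listed genes may be among the 46 raised probe sets without a gene name. The counts therefore cannot show that a response was absent.

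At the 2-fold limit the named genes just inside were At5g42050 (2.01), AMY1 (2.02) and At2g43580 (2.03), and those just outside were At2g36970 (106 and 125 without iodide against 270.4 and 249 with it), At5g18470 (1.99) and At2g07777 (1.99). At the signal limit At2g43580, At3g10120 and At5g54720 lay just inside, with lower iodide signals of 107, 112 and 115, and At1g64405 (91.3), BHLH101 (85.9) and At1g10690 (84.7) just outside. Many members thus sat close to a limit. After quantile normalization 61 of the 81 still met the rule and after median scaling 54, and the 14 named genes that left under either had shoot folds of 2.01 to 2.17. All 29 probe sets raised in root met the root rule under both scalings. By the study's own size criterion of a 4-fold difference from control and a signal of at least 100, met by both iodide salts and not by KBr, 17 probe sets (0.0747%) qualified in shoot. Of them 11 were members, 3 of these named. The study also asked for a detection p-value, which was not used here, so this count is not the one it reported.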

How the data were processed

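The authors hybridised RNA of rosettes and roots to ATH1 arrays and computed signals with Microarray Suite 5.0. The deposited values are MAS5 signals, a linear-scale intensity, with a mean after trimming 2% at each end of 494 to 496 per array. They were used with no further normalization. Detection calls were not used, and no genome build is given in the sources used here. With only 1 array for each treatment in each tissue, their number limits the precision.

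Of 22810 probe sets, 64 Affymetrix controls were left out. The platform table gave 13513 probe sets 1 gene symbol, 503 several and 8730 none, and 13484 were matched to a locus through the TAIR10.1 gene table of RefSeq, from which only names and gene order were taken. The members and the gene lists were chosen with earlier results of these data known, and the function groups were assigned after the values were seen. Genes named were the 20 with the largest shoot fold, the 10 with the highest lower iodide signal, list members, up to 10 raised in root, those at the limits, and up to 2 unraised genes per list. The other 8 named members and the loci that follow CHI were added after their values were seen, as were the probe sets shown by ID. No test was run. The rule was tried on simulated data whose known changes were larger, and in brighter probe sets, than those of most members here. That trial therefore does not show how the rule handles small or dim differences. Alternatives covered the fold, the signal limit, a floor, scaling, the baseline and the iodide array used, and the probe sets counted. Analyses used matplotlib 3.10.9, scipy 1.17.1, pandas 2.3.3 and numpy 2.4.6 under Python 3.11.15.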

Additional observations from a re-analysis of the deposited data

Results flagged for a closer look

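In 4 of the 81 probe sets both iodide arrays were above control and KBr in shoot and below both in root, with a root signal of at least 100. The difference between the tissues was not tested. The value given is the higher root iodide signal over the lower of root control and KBr. It was 0.736 for At3g53980, 0.756 for At4g34560, 0.548 for the unnamed probe set 267610_at and 0.957 for the unnamed probe set 260783_at. In 267610_at the root arrays read 1725 and 1915 without iodide and 884 and 945 with it, beside a shoot fold of 3.00. In 260783_at the root signals of 313 and 264 without iodide lay close to the 253 and 252 with it.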

How the results depend on the processing

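With 1 array per group, no result from these arrays has a replicate check, and no array could be left out. No paired analysis was possible because each group has a single array. The planned promoter motif counts were not run, since no promoter sequence was at hand. The number of members, 81, became 332 with a fold of 1.5, 13 with 3 and 5 with 4. It was 123 with a signal limit of 50, 187 against control alone, 145 against KBr alone, 156 with NaI alone, 251 with KI alone, and 35 with single-gene probe sets alone. The number also raised in root, 29, became 79, 5 and 3 at folds of 1.5, 3 and 4, 51 against control alone, 45 with NaI alone, 49 with KI alone and 13 with single-gene probe sets. As a share of members this was 23.8%, 38.5% and 60% at folds of 1.5, 3 and 4, beside 4.73%, 1.55% and 1.03% of all probe sets. It was 27.3% against control alone, 28.8% with NaI alone, 19.5% with KI alone and 37.1% with single-gene probe sets. Beside these stood 3.69%, 3.39%, 3.35% and 2.52% of the probe sets counted. The median log2 root fold, 1.01, was 0.14, 2.51 and 3.83 at folds of 1.5, 3 and 4, and 0.93 and 1.14 with signal limits of 50 and 200. It was 0.85 with a floor, 1.07 after quantile normalization, 1.11 after median scaling, 0.46 against control, 0.52 against KBr, 0.65 with NaI, 0.45 with KI and 1.03 with single-gene probe sets. With no root minimum, an alternative chosen after seeing the data, it was 0.72. The number of genes of all lists raised in shoot, 4, all of them glucanases and chitinases, became 2 at a fold of 3 and 1 at a fold of 4. With NaI alone it was 8, of which 4 were glucanases and chitinases. Under every alternative listed the median stayed above 0. A larger fold also selects a different set, and the cause of the other shifts was not tested.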
